A study of Mus musculus with 6 samples.

Results

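The genes described here make and police the folding space of the endoplasmic reticulum (ER). They are 37 named genes of protein folding, disulfide bonding, ER degradation, translocation and the ER stress response, taken by symbol from the 37620 gene rows of a count table, and all 37 were found there by their Ensembl gene ID. They were measured by RNA sequencing in granulocyte-macrophage progenitors (GMPs), marrow progenitors of granulocytes and monocytes, which were sorted from C57BL/6 mice on c-Kit, CD34 and Fcγ receptor staining after removal of lineage-marked and Sca1-bearing cells. The first group, labelled Bap1 KO, was 3 libraries from MX1+ Cre Bap1 f/f mice, and the other, labelled control, was 3 libraries from Bap1 f/f mice without Cre. Per the labels, mice of both groups carried the floxed Bap1 alleles and received polyI:polyC (pIpC), at 42 days of age, with marrow taken at 65 days; the series' design text gives a younger age for the injections. The Mx1 promoter that drives Cre is switched on by interferon in many cell types, so deletion is not limited to blood progenitors. Cre was present only in the Bap1 KO group, so that an effect of Cre and of Bap1 deletion cannot be told apart. The labels do not say whether each library came from its own mouse, and p-values measure the spread between these libraries.

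Proteins that enter the ER fold there with the help of chaperones such as BiP, are held together by disulfide bonds made by the protein disulfide isomerases, and are pulled back out for destruction when folding fails. ER-resident sensors watch the load. ATF6 and IRE1, which acts through spliced XBP1, raise transcription of chaperones and degradation genes, while PERK phosphorylates eIF2α, which slows translation and favours production of ATF4, a transcription factor of amino acid supply and stress genes. GMPs make large amounts of granule proteins, such as myeloperoxidase, that pass through this compartment.

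The promoters of these genes are shown first, since many ER chaperone genes share a DNA element, the ER stress response element (ERSE), that ATF6 and XBP1 use together with NF-Y. The search covered RefSeq promoter windows of 300 bases (250 before and 50 after the annotated start, GRCm38.p6), which were found for 30 of the 37 members. ERSE was searched as CCAAT and CCACG with 9 bases between them, ERSE-II as ATTGG and CCACG with 1 base between them, the XBP1-type element UPRE as TGACGTGG and the C/EBP-ATF response element CARE, bound by ATF4, as TGATGNAA, each on both strands, and no matches of different motifs overlapped in these members. ERSE was present in 9 of the 30 members, against 0.137% of all 27025 genes with a window (0.119% of all 32851 windows). The matches are listed in the direction of the motif, with the fixed bases in capitals and the strand in brackets. The following belong to members that were lower in the libraries labelled Bap1 KO.
Hspa5, chr2:34772025-34772043 (+): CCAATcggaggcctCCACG
Hsp90b1, chr10:86705638-86705656 (-): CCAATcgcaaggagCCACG
Hsp90b1, chr10:86705533-86705551 (+): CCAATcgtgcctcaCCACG
Creld2, chr15:88819520-88819538 (-): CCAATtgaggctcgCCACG
Pdia6, chr12:17266491-17266509 (+): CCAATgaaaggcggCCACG
Members that did not pass the test held the same element.
Calr, chr8:84847075-84847093 (+): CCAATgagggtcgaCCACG
Canx, chr11:50325800-50325818 (-): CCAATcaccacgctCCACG
Dnajc3, chr14:118937827-118937845 (+): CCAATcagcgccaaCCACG
Syvn1, chr19:6046532-6046550 (+): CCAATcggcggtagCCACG
Derl3, chr10:75893242-75893260 (-): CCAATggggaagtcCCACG
ERSE was thus found in 4 of the 8 lower members with a window, in 5 of the 19 that did not pass, and in 0 of the 3 higher ones. ERSE-II was present in Herpud1, which was lower, and in Dnajb11, which did not pass, against 0.0444% of all genes with a window. UPRE was found in 0 of 30 members and in 0.714% of all genes with a window. CARE was present in Asns, Trib3, Chac1 and Herpud1, against 4.51% of all genes with a window. Asns and Trib3 were the higher members of the ATF4 arm. A match describes letters in this window and does not show that a factor binds there. The motifs were chosen for their known part in these pathways, so their shares among the members are a description and not a test.

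The longer stretches, each the 250 bases before the start in the gene's own direction, show where the elements lie, with the fixed bases of ERSE, ERSE-II and CARE in capitals on whichever strand they match. Hspa5 and Creld2 were lower, Calr carried ERSE and did not pass, Herpud1 was lower and carried both ERSE-II and CARE, and Asns was higher.
Hspa5, chr2:34771840-34772089 (+): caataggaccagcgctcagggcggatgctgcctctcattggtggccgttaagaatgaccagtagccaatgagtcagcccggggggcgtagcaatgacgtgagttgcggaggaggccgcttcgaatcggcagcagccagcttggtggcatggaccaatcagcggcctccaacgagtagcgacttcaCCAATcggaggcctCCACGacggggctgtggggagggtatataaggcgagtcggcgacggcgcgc
Creld2, chr15:88819396-88819645 (+): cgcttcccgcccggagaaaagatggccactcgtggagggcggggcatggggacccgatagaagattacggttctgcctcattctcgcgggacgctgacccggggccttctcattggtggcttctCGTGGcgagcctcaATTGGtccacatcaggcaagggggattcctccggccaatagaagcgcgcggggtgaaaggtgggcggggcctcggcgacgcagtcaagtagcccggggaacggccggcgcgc
Calr, chr8:84846932-84847181 (-): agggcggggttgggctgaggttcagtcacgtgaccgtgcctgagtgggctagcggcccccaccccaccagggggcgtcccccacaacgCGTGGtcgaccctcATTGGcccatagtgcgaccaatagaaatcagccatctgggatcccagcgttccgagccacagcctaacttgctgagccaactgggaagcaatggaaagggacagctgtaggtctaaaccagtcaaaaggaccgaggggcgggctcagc
Herpud1, chr8:94386179-94386428 (+): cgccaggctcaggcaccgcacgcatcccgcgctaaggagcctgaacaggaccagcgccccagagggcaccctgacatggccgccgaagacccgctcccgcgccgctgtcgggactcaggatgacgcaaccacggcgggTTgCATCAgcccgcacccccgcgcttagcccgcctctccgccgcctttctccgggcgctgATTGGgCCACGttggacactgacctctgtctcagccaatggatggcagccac
Asns, chr6:7693210-7693459 (-): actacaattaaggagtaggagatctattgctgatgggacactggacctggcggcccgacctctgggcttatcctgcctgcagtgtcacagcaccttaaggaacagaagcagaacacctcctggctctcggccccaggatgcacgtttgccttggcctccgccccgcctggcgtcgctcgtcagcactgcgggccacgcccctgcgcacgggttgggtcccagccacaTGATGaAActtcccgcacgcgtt

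**Figure D1:**
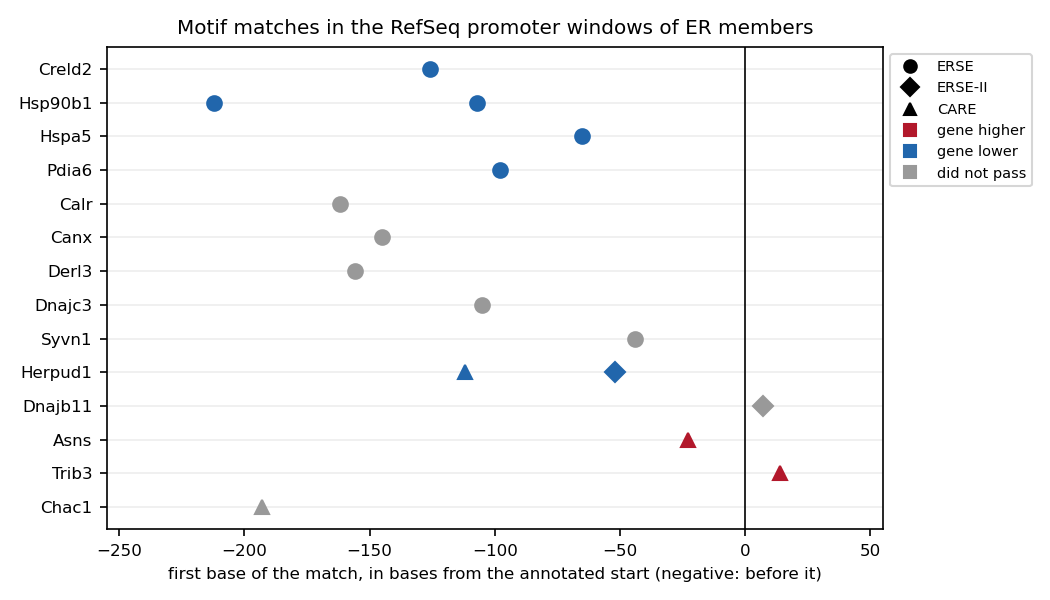
Position of each motif match in the promoter windows of ER members, as the distance in bases of its first base from the annotated start; the symbol gives the motif and the colour whether the gene was lower, higher or did not pass. ERSE matches lie between 212 and 44 bases before the start, in lower genes and in genes that did not pass. CARE lies 23 bases before the start in Asns and 14 bases after it in Trib3, both higher. It lies 193 bases before the start in Chac1, which did not pass, and 112 before it in Herpud1, which was lower.

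Values below are normalized counts, that is gene counts divided by the authors' size factor of the library, from libraries with 19.5 to 24.1 M gene reads (Bap1 KO) and 24.1 to 25.9 M (control). Differences were tested with limma on log2(value + 1) over the 14391 genes with a mean of at least 10, at a Benjamini-Hochberg adjusted p of 0.05 over all of them, and all 37 members were among these, with a mean of at least 10 in each group. In the libraries labelled Bap1 KO 11.8% of these genes (1695) passed as higher and 15.0% (2163) as lower, in all 26.8%. Removing a trend with GC content and transcript length changed the split to 2609 higher and 1892 lower: falls made up 42.0% of the calls with it and 56.1% without it. It moved the median log2 fold change over all genes to 0.09, against 0.01 without it. Bap1 itself was at 2671, 3309 and 2968 normalized counts in the libraries labelled Bap1 KO, against 1343, 998.5 and 1076 in control libraries (adjusted p = 6.07e-05). This goes against the label, and a count over the whole gene does not check a deletion of part of it, so each direction is that of the libraries labelled Bap1 KO. Markers of the sorted cells were present in every library: Mpo averaged 635306 ± 122886 in libraries labelled Bap1 KO and 509919 ± 18682 in control libraries (SD, n = 3 each), and Cd34 averaged 3963 ± 243.6 in libraries labelled Bap1 KO and 11499 ± 296.5 in control libraries.

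Of the 37 members, 11 were lower and 3 were higher in the libraries labelled Bap1 KO, 29.7% and 8.11% of them, against 15.0% and 11.8% of all genes tested. The lower ones were the chaperones Hspa5, Hsp90b1, Hyou1, Sdf2l1, Manf and Creld2, the disulfide enzymes Pdia3, Pdia4, Pdia6 and Ero1lb, and the degradation gene Herpud1. The higher ones were Xbp1, Asns and Trib3. The members were chosen with earlier results of these data known, so these shares are described and not tested. The median log2 fold change was -0.22 over the members and 0.01 over all genes tested. Together the members took 1.56 to 1.59% of gene reads in the libraries labelled Bap1 KO and 1.95 to 2.01% in control libraries. The groups did not overlap in 14 members that lay below control and 6 that lay above it, 54.1% of the 37 in all; over all genes tested 22.5% lay below without overlap and 20.4% above, 42.9% in all.

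**Figure D2:**
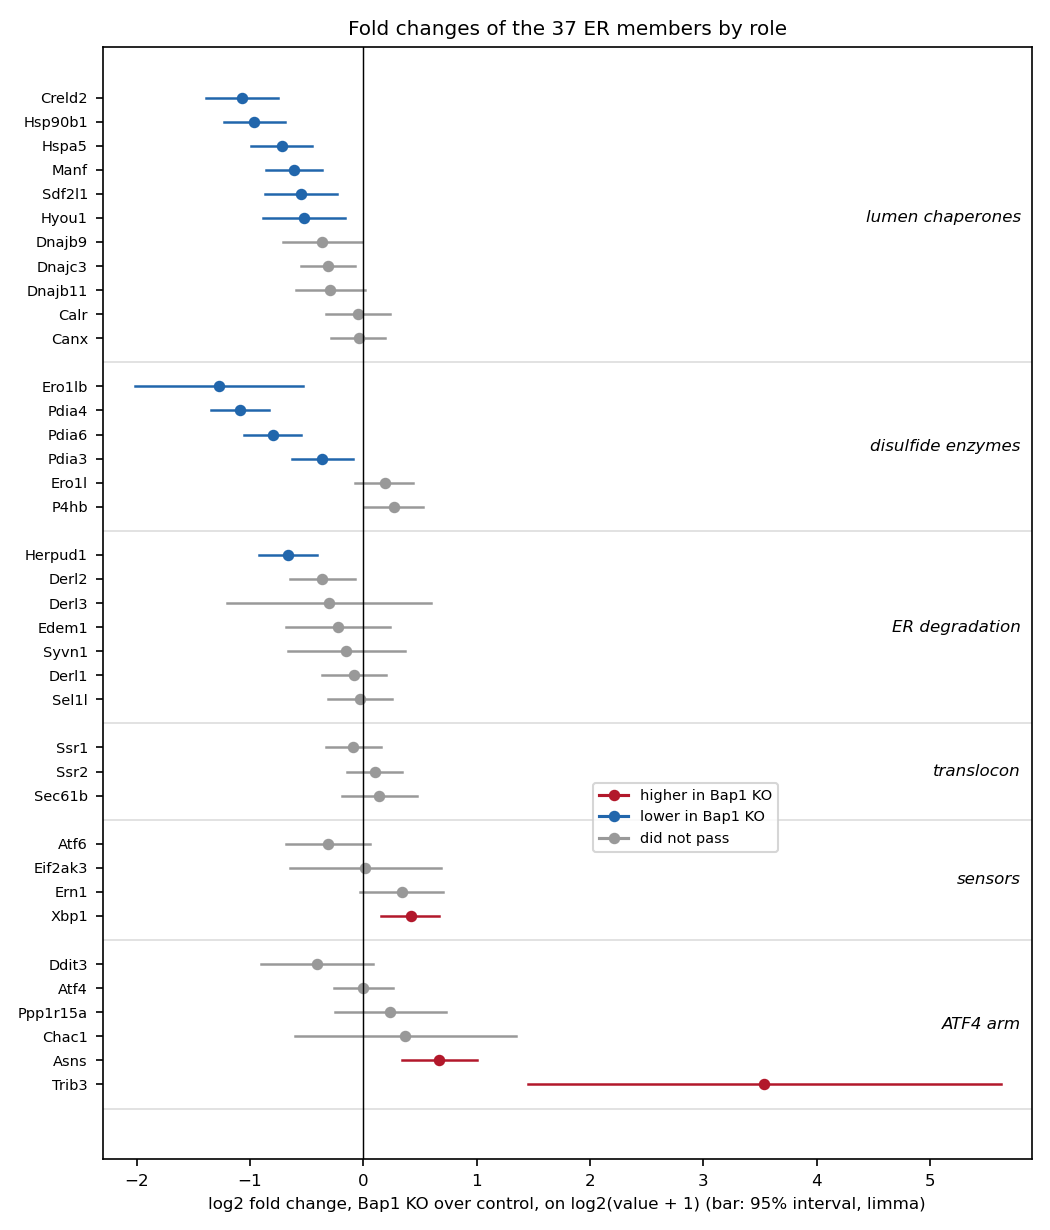
Log2 fold change of each of the 37 members (Bap1 KO over control, horizontal axis) with its 95% interval from limma, grouped by role; colour marks higher, lower and not passing. The chaperones lie between -1.07 and -0.04, the degradation genes between -0.66 and -0.03, and the ATF4 arm between -0.41 and 3.54.

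Of 11 chaperones of the ER lumen and their helpers, 6 fell (54.5%) and 0 rose, against 15.0% and 11.8% of all genes tested. Their median log2 fold change was -0.52. All 11 estimates were negative, but Calr (0.12), Canx (0.31) and Dnajc3 (0.07) were positive after the GC and length correction, and Calr (0.03) without Bap1 KO replicate 1. limma also found 0 higher at an unadjusted p under 0.05, as did edgeR and DESeq2 at their adjusted p. Hspa5 encodes BiP, the main Hsp70 of the ER and the protein that holds the stress sensors inactive. It stood at 53341, 54191 and 46064 normalized counts in the libraries labelled Bap1 KO, against 80521, 90074 and 82316 in control libraries. Every library labelled Bap1 KO was below every control library, and control was 1.65-fold higher (log2 fold change -0.72, SE 0.12, limma adjusted p = 0.00159). Hsp90b1, the ER form of Hsp90 known as GRP94, was at 19027, 16470 and 14916 in libraries labelled Bap1 KO, against 30444, 33355 and 33761 in control libraries. The groups were far apart for this gene, and control was 1.94-fold higher (log2 fold change -0.96 with an SE of 0.12, limma adjusted p = 0.000238). Both genes carry the ERSE sites printed above, as do Calr, Canx and Dnajc3, which did not pass.

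The smaller co-chaperones and secreted ER factors showed the same direction. Creld2, an ER protein induced by stress with disulfide isomerase-like activity, had 1732, 2366 and 1912 normalized counts in libraries labelled Bap1 KO, against 3774, 4828 and 3976 in control libraries. Its groups did not overlap, and it had the largest fall among the chaperones (log2 fold change -1.07, SE 0.15, limma adjusted p = 0.000366). Manf, a secreted factor that binds BiP, was at 7802, 8206 and 6748 in libraries labelled Bap1 KO, against 11519, 12012 and 11100 in control libraries (log2 fold change -0.61, limma adjusted p = 0.00239). Sdf2l1, a part of the BiP complex, was at 5256, 6955 and 4590 in libraries labelled Bap1 KO, against 7949, 8198 and 8087 in control libraries (log2 fold change -0.55, limma adjusted p = 0.0157). Bap1 KO replicate 2 was the closest to control for Creld2, Manf and Sdf2l1, but still below each control library. Hyou1, the large Hsp70-like exchange factor of BiP, was at 447.0, 585.1 and 459.1 in libraries labelled Bap1 KO, against 703.7, 778.7 and 646.2 in control libraries (log2 fold change -0.52, limma adjusted p = 0.0370). Its call was lost without Bap1 KO replicate 1 (adjusted p = 0.0750) or 3 (0.0794) and without control replicate 1 (0.0944), 2 (0.148) or 3 (0.0679), and that of Sdf2l1 without control replicate 2 (0.0622) or 3 (0.0569).

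The J-domain proteins and the lectin chaperones did not pass. Dnajc3, which brings clients to BiP, averaged 5870 ± 471 in libraries labelled Bap1 KO and 7286 ± 333.9 in control libraries (SD, n = 3 each; limma adjusted p = 0.0534), and it passed without Bap1 KO replicate 2 (0.0321), in DESeq2 (0.0429), with voom weights (0.0473) and among genes with a mean of at least 50 (just under 0.05). Its groups did not overlap. Dnajb9, the J-protein that acts on IRE1, averaged 815.1 ± 76.7 in libraries labelled Bap1 KO and 1054 ± 198.1 in control libraries (adjusted p = 0.121), again without overlap. Dnajb11 averaged 5461 ± 885.2 in libraries labelled Bap1 KO and 6620 ± 613.8 in control libraries (0.148). Calr, the calcium-binding lectin chaperone of the lumen, was at 40182, 52155 and 42443 in libraries labelled Bap1 KO, against 47209, 44045 and 47055 in control libraries. The groups overlapped, and the 95% interval of its log2 fold change ran from -0.33 to 0.24 (limma adjusted p = 0.824). For Canx, its membrane-bound relative, the interval ran from -0.28 to 0.19 (adjusted p = 0.809), and the estimate turned from -0.04 to 0.31 after the GC and length correction (adjusted p = 0.0145).

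Among the disulfide enzymes 4 of 6 fell and 0 rose (0 also in edgeR and DESeq2, and 1, P4hb, at an unadjusted p under 0.05), with a median log2 fold change of -0.58. The falls were 66.7% of the 6, against 15.0% of all genes tested that passed as lower. Pdia4, a disulfide isomerase of the lumen also called ERp72, was at 4529, 5449 and 4332 normalized counts in libraries labelled Bap1 KO, against 10031, 10198 and 9995 in control libraries. The control libraries lay close together, and control was 2.11-fold higher, with the lowest adjusted p of any member (log2 fold change -1.09, SE 0.12, limma adjusted p = 7.41e-05). Pdia6, an isomerase that also acts on the sensor IRE1, was at 22919, 25695 and 21224 in libraries labelled Bap1 KO, against 40457, 39996 and 41032 in control libraries (log2 fold change -0.80, SE 0.12, limma adjusted p = 0.000513). Its groups did not overlap, and it too holds an ERSE site, while none was found in the window of Pdia4, which fell further. Ero1lb, an oxidase that recharges the isomerases, was at 129.1, 200.9 and 71.9 in libraries labelled Bap1 KO, against 331.4, 338.2 and 237.1 in control libraries (log2 fold change -1.27, SE 0.34, limma adjusted p = 0.0165). Without control replicate 1 (0.0533) or 2 (0.0675) it no longer passed, nor after the GC and length correction (0.0580). Pdia3, the isomerase that works with the lectin chaperones, was at 43424, 41692 and 35476 in libraries labelled Bap1 KO, against 51003, 49911 and 53484 in control libraries (log2 fold change -0.36, limma adjusted p = 0.0465). It lost the call without control replicate 1 (0.145), 2 (0.128) or 3 (0.192), without a filter beyond 1 read (0.0905), after the GC and length correction (0.219) and with the replicate number as a block (0.102), under which the count of fallen disulfide enzymes was 3.

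P4hb and Ero1l lay on the other side of zero. P4hb, the founding disulfide isomerase and a subunit of collagen prolyl hydroxylase, was at 66713, 72410 and 67246 in libraries labelled Bap1 KO, against 54921, 60939 and 55666 in control libraries. Every library labelled Bap1 KO was above every control library, but the change did not pass (log2 fold change 0.27, 95% interval 0.01 to 0.53, limma adjusted p = 0.116). Ero1l, the other oxidase, averaged 2788 ± 160.7 in libraries labelled Bap1 KO and 2451 ± 186.5 in control libraries (adjusted p = 0.260), and it was higher after the GC and length correction (0.00187).

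The order of levels among the folding genes differed between the groups. Per kilobase of the longest annotated transcript, Hspa5 had the highest level of all members in each control library, at 21928 to 24530 normalized counts per kb. In the libraries labelled Bap1 KO it ranked 4 or 5 among the 37 members, at 12545 to 14758 per kb. P4hb ranked 1 in every library labelled Bap1 KO, at 23318 to 25309 per kb, and 2 or 3 in control libraries, at 19196 to 21300 per kb. Calr ranked 2 or 3 in all 6 libraries, at 18398 to 23880 per kb in libraries labelled Bap1 KO and 20167 to 21616 per kb in control libraries, so its range overlapped those of P4hb there. Pdia6 and Pdia3, with 18389 to 18865 and 18018 to 19308 per kb in control libraries, could not be ordered there; in libraries labelled Bap1 KO Pdia6 was at 9758 to 11814 per kb and Pdia3 at 12807 to 15677 per kb. The transcript form in use was not measured, so a level per kb can be too low where a shorter form is made.

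**Figure D3:**
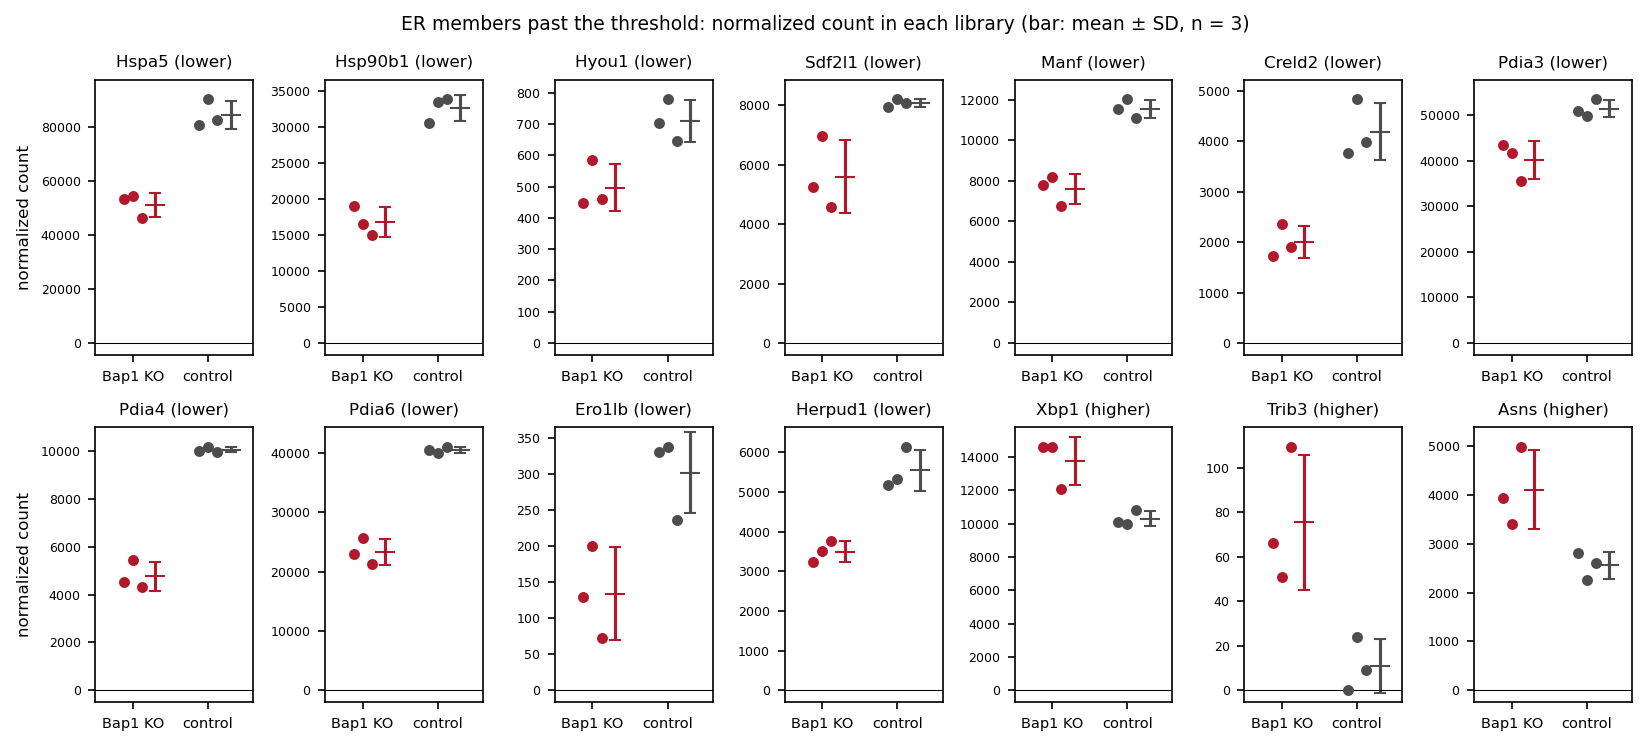
Normalized counts (vertical axes, linear) of the 14 members past the threshold in each library, with Bap1 KO (red) left of control (grey) and points in the order of replicates 1 to 3; bars give the mean and SD. In all 14, which were picked by the test on these values, the points of the groups do not overlap. Over all genes tested 42.9% did not overlap. Pdia4 had 4332 to 5449 in Bap1 KO and 9995 to 10198 in control libraries.

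ER degradation genes, whose products recognise, extract and ubiquitinate misfolded proteins, showed 1 fall and 0 rises among 7 (0 rises also at an unadjusted p under 0.05, in edgeR and in DESeq2). That fall was 14.3% of the 7, near the 15.0% of all genes tested that passed as lower. Herpud1, a membrane protein that organises the degradation complex, was at 3235, 3509 and 3756 normalized counts in libraries labelled Bap1 KO, against 5167, 5332 and 6144 in control libraries. The groups did not overlap, and control was 1.59-fold higher (log2 fold change -0.66, SE 0.12, limma adjusted p = 0.00183). The core of the ubiquitin ligase did not pass: Sel1l, its scaffold, averaged 1533 ± 173.8 in libraries labelled Bap1 KO and 1563 ± 37.4 in control libraries (95% interval of the log2 fold change -0.31 to 0.25, adjusted p = 0.869), and Syvn1, the ligase itself, averaged 395.3 ± 134.8 in libraries labelled Bap1 KO and 424.7 ± 59.5 in control libraries (-0.66 to 0.37, adjusted p = 0.682). Derl2, a channel component, averaged 2399 ± 370.7 in libraries labelled Bap1 KO and 3051 ± 118.2 in control libraries; its groups did not overlap, and it passed without Bap1 KO replicate 1 (adjusted p = 0.0337) but not with it (0.0675), so that the count of falls was then 2. Derl1, at 2966 ± 431.5 in libraries labelled Bap1 KO and 3107 ± 88.5 in control libraries, did not pass (0.695). Edem1, a lectin that hands over misfolded glycoproteins, did not pass either, at 1071 ± 197.1 in libraries labelled Bap1 KO and 1266 ± 332.5 in control libraries (0.469). Derl3 was low in every library, with 25 to 56 reads in those labelled Bap1 KO and 45 to 69 reads in control libraries, and its 95% interval ran from -1.20 to 0.60. The median log2 fold change of the 7 was -0.22, and 0.01 after the GC and length correction.

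Translocon genes, which bring nascent chains into the ER, did not pass in either direction: 0 of 3 were higher or lower, with 0 at an unadjusted p under 0.05 and 0 in edgeR and DESeq2. Sec61b, a subunit of the channel, averaged 4657 ± 832.5 in libraries labelled Bap1 KO and 4213 ± 568.7 in control libraries. Ssr1, a subunit of the translocon-associated complex, averaged 19770 ± 1600 in libraries labelled Bap1 KO and 20962 ± 899 in control libraries. Ssr2, of the same complex, averaged 16321 ± 1447 in libraries labelled Bap1 KO and 15155 ± 378.5 in control libraries. On the log2 scale the 95% intervals ran from -0.19 to 0.47 for Sec61b, from -0.33 to 0.16 for Ssr1 and from -0.14 to 0.34 for Ssr2.

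Among the sensors and their transcription factors Xbp1 alone of 4 passed, and it was higher, while 0 were lower (0 also at an unadjusted p under 0.05, in edgeR and in DESeq2). Xbp1, whose mRNA is spliced by IRE1 to give an active transcription factor, was at 14606, 14585 and 12094 normalized counts in libraries labelled Bap1 KO, against 10063, 9975 and 10805 in control libraries. All 3 libraries labelled Bap1 KO were above all control libraries, by 1.34-fold (log2 fold change 0.42, SE 0.12, limma adjusted p = 0.0201). The call was lost without Bap1 KO replicate 2 (0.0502) and without control replicate 1 (0.0822), 2 (0.0942) or 3 (0.0600). The table counts reads per gene, so spliced and unspliced Xbp1 were not told apart. Ern1, which encodes IRE1, was at 518.4, 541.4 and 694.3 in libraries labelled Bap1 KO, against 489.6, 430.9 and 459.0 in control libraries; the groups did not overlap, yet it did not pass (log2 fold change 0.34, limma adjusted p = 0.164), except after the GC and length correction (0.0279). Atf6 was at 380.8, 485.2 and 402.0 in libraries labelled Bap1 KO, against 570.4, 517.9 and 482.2 in control libraries, with overlapping groups and a 95% interval of -0.68 to 0.06 (adjusted p = 0.194). Eif2ak3, which encodes PERK, was the sensor with the fewest reads, at 65.1, 73.9 and 100.5 in libraries labelled Bap1 KO, against 70.2, 79.3 and 82.9 in control libraries. These groups overlapped, and the 95% interval ran from -0.65 to 0.69 (adjusted p = 0.967).

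In the ATF4 arm 2 of 6 genes were higher and 0 lower (0 also at an unadjusted p under 0.05, in edgeR and in DESeq2). The higher genes were 33.3% of the 6, against 11.8% of all genes tested. Atf4 mRNA itself did not pass, at 3491, 3540 and 3893 normalized counts in libraries labelled Bap1 KO, against 3751, 3950 and 3244 in control libraries. The groups overlapped, with a 95% interval of -0.26 to 0.26 on the log2 scale (limma adjusted p = 0.999). ATF4 is controlled mainly at translation, which these data do not measure. Asns, asparagine synthetase and a direct ATF4 target, was at 3935, 3401 and 4993 in libraries labelled Bap1 KO, against 2811, 2263 and 2606 in control libraries. Its groups did not overlap, and those labelled Bap1 KO were 1.61-fold higher (log2 fold change 0.67 with an SE of 0.15, limma adjusted p = 0.00715). Trib3, a pseudokinase gene induced by ATF4 and CHOP, was at 66.1, 51.0 and 109.6 in libraries labelled Bap1 KO, against 0, 23.9 and 8.91 in control libraries. The control libraries held 0 to 25 reads for it and those labelled Bap1 KO 49 to 96, so that the 6.91-fold ratio of means rests on few reads (log2 fold change 3.54, SE 0.96, limma adjusted p = 0.0179), and the call was lost without Bap1 KO replicate 3 (0.0634).

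Other ATF4-arm genes did not pass. Ddit3, the pro-apoptotic factor CHOP, was at 213.3, 261.3 and 244.4 in libraries labelled Bap1 KO, against 233.7, 388.9 and 350.3 in control libraries, with overlapping groups (log2 fold change -0.41, limma adjusted p = 0.211). Chac1, a glutathione-degrading enzyme, averaged 85.5 ± 47.1 in libraries labelled Bap1 KO and 58.6 ± 11.4 in control libraries (adjusted p = 0.571). Ppp1r15a, also called GADD34, which restores translation by dephosphorylating eIF2α, averaged 282.1 ± 39.8 in libraries labelled Bap1 KO and 241.2 ± 51.2 in control libraries (0.465). The median of the 6 was 0.31.

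**Figure D4:**
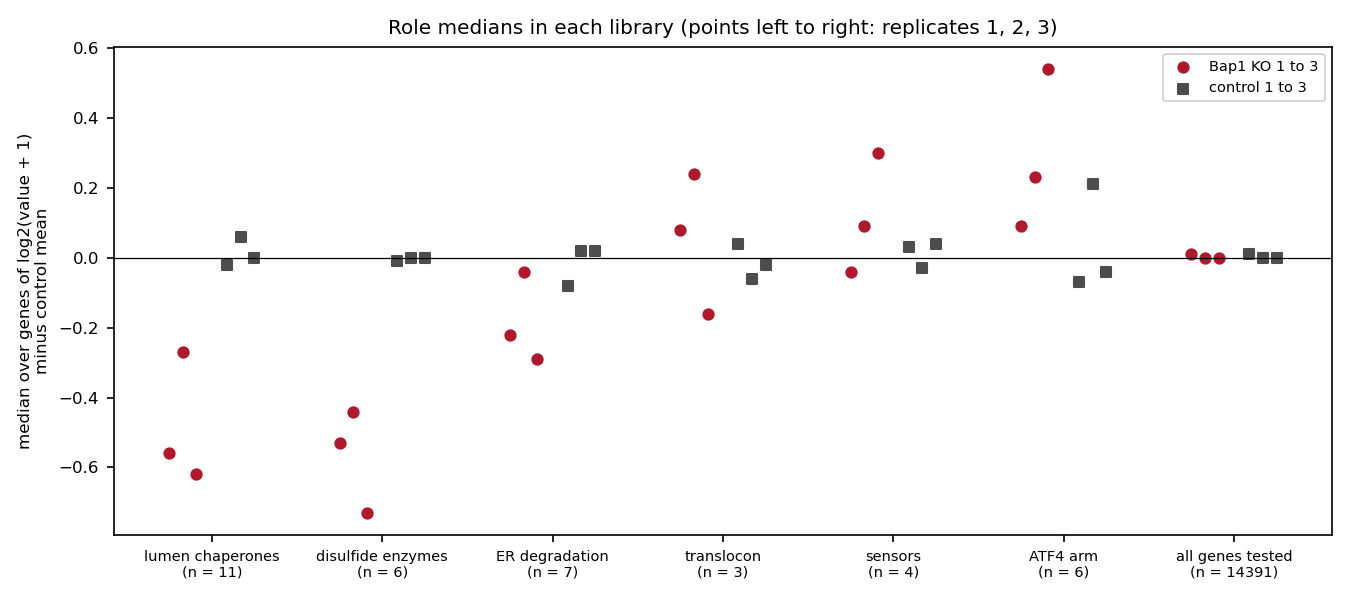
Median over the genes of each role of log2(value + 1) minus the mean of the control libraries (vertical axis), for each library of the Bap1 KO group (circles) and the control group (squares). Chaperones were at -0.56, -0.27 and -0.62 in Bap1 KO replicates 1, 2 and 3, against -0.02 to 0.06 in control libraries, while all genes tested lay at 0 to 0.01.

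The roles differed in how they were spread over libraries, as the plot of role medians shows. The disulfide enzymes were at -0.53, -0.44 and -0.73 in Bap1 KO replicates 1, 2 and 3, against -0.01 to 0 in control libraries. The degradation genes were at -0.22, -0.04 and -0.29 in libraries labelled Bap1 KO, against -0.08 to 0.02 in control libraries, so that replicate 2 lay within the control range. The ATF4 arm was at 0.09, 0.23 and 0.54 in libraries labelled Bap1 KO, against -0.07 to 0.21 in control libraries, and these overlapped. As shares of gene reads, the chaperones took 0.656 to 0.683% in libraries labelled Bap1 KO and 0.935 to 0.985% in control libraries. The translocon genes took 0.167 to 0.175% in libraries labelled Bap1 KO and 0.168 to 0.180% in control libraries.

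Markers of other cell types moved in the same libraries as the chaperones. In bulk samples, fewer cells of a type and less RNA per cell cannot be told apart. All 8 monocyte markers were lower, with a summed level of 4299 to 7742 normalized counts in libraries labelled Bap1 KO and 29093 to 30386 in control libraries, and each of them had reads in both groups. Of 14 plasma and B-lineage markers, cells known for abundant ER, 11 were tested, 10 were lower and 1, Sdc1, was higher; the sum was 2066 to 6769 in libraries labelled Bap1 KO and 11257 to 12812 in control libraries. Of the 10 lower ones, 4 reached the minimum mean only through the control libraries. Among the defining markers, Vpreb3 had 0 reads in all libraries labelled Bap1 KO and 51 to 81 in control libraries. Pax5 had 0 reads in all libraries labelled Bap1 KO and 4 to 7 in control libraries, and Irf4 had 0 reads in all libraries labelled Bap1 KO and 0, 11 and 0 in control libraries. Prdm1, the plasma cell regulator, had 0 reads in all 6 libraries. Of 7 plasmacytoid dendritic markers, 5 were tested and passed as lower, of which 2, Ccr9 and Ly6d, reached the minimum mean of 10 only through the control libraries (sum 289 to 542 in libraries labelled Bap1 KO, 2139 to 2518 in control libraries; Pacsin1 had 0 reads in all those labelled Bap1 KO and 1 to 9 in control libraries). Of 7 basophil and mast cell markers 4 were lower and 1 higher (sum 20059 to 29955 in libraries labelled Bap1 KO, 50704 to 60971 in control libraries). Of 4 eosinophil markers 3 were lower (27775 to 31920 in libraries labelled Bap1 KO, 45057 to 53361 in control libraries). Of 8 erythroid markers 4 were higher and 1 lower, and of 5 megakaryocyte markers 1 was lower, with overlapping sums for both lists. Of 8 genes of the gate and the primary granule 4 were higher and 2 lower (sum 1099656 to 1593583 in libraries labelled Bap1 KO, 885595 to 959286 in control libraries). Mpo and Elane made up most of that sum, averaging 635306 and 444320 in libraries labelled Bap1 KO and 509919 and 268365 in control libraries. The 2 lower were the gate genes Cd34 and Fcgr3, while the gate gene Kit was higher. Of 8 neutrophil granule markers 2 were higher, with overlapping sums. The part of these cell types in the changes of the ER genes was not tested.

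Further genes of the same pathways, came from 7 lists: of 184 tested, 19 were higher and 23 lower, or 10.3% and 12.5%, against 11.8% and 15.0% of all genes, with a median log2 fold change of -0.03. Among other folding enzymes 4 of 34 were higher and 9 lower (median -0.08). Prdx4, the ER peroxiredoxin that supplies oxidizing power for disulfides, had 364.8, 389.4 and 235.2 normalized counts in libraries labelled Bap1 KO, against 1399, 1145 and 1400 in control libraries (log2 fold change -2.02, SE 0.20, limma adjusted p = 4.76e-05). Its groups were far apart, with control 3.99-fold higher. Dnajc10, a reductase with a J domain known as ERdj5, and Hspa13, an Hsp70 relative of microsomes, were lower by log2 fold changes of -1.02 and -1.17 (adjusted p = 0.000165 and 0.000179). Fkbp7, a prolyl isomerase, Qsox1, a sulfhydryl oxidase, and Sdf4, a calcium-binding protein of the Golgi lumen, were higher by 1.45, 1.06 and 0.90 (0.000254, 0.00144 and 0.00573).

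Among other ATF4 targets 8 of 39 were higher and 3 lower (median 0.14). These were 20.5% and 7.69%, against 11.8% and 15.0% of all genes tested. The translation inhibitor gene Eif4ebp1 was at 3725, 4514 and 4159 in libraries labelled Bap1 KO, against 2585, 2453 and 2384 in control libraries (log2 fold change 0.74, SE 0.12, limma adjusted p = 0.000918). Stc2, a secreted glycoprotein, was at 148.3, 136.4 and 129.0 in libraries labelled Bap1 KO, against 30.2, 11.5 and 2.67 in control libraries (adjusted p = 0.00189). Cbs, an enzyme of cysteine synthesis, was at 22.4, 45.8 and 74.2 in libraries labelled Bap1 KO, against 0.888, 8.60 and 0 in control libraries. In each of these, picked by their low adjusted p, the groups did not overlap. Cbs and Cth, the next enzyme of that route, reached the minimum mean of 10 only through the libraries labelled Bap1 KO, so 2 of the 8 calls had to be higher; Cth was named after its values were seen. Cebpg, the ATF4 partner C/EBPγ, and Pycr1, an enzyme of proline synthesis, were lower by log2 fold changes of -1.56 and -1.43 (0.000425 and 0.00673).

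In further ER degradation 5 of 26 were higher and 2 lower, or 19.2% and 7.69%, against 11.8% and 15.0% of all genes tested. The ubiquitin-conjugating enzymes Ube2j2 and Ube2g2 had log2 fold changes of 1.13 and 0.56 and passed as higher (limma adjusted p = 0.00382 and 0.00442). The mannosidase-like Edem3 was lower, at -1.23 (0.00260). In glycosylation 1 of 21 was higher and 5 lower, with the oligosaccharyltransferase subunit Magt1 at -0.64 (0.00171). Of 18 eIF2 regulators 2 were lower, with the adaptor Nck1 at -0.84 (0.00401), and 0 were higher (1 at an unadjusted p under 0.05, 0 in edgeR and DESeq2). Of 22 translocation genes 1 was higher and 1 lower, and of 24 genes of COPII transport 0 were higher (1 at an unadjusted p under 0.05, 0 in edgeR and DESeq2) and 1 was lower.

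**Figure D5:**
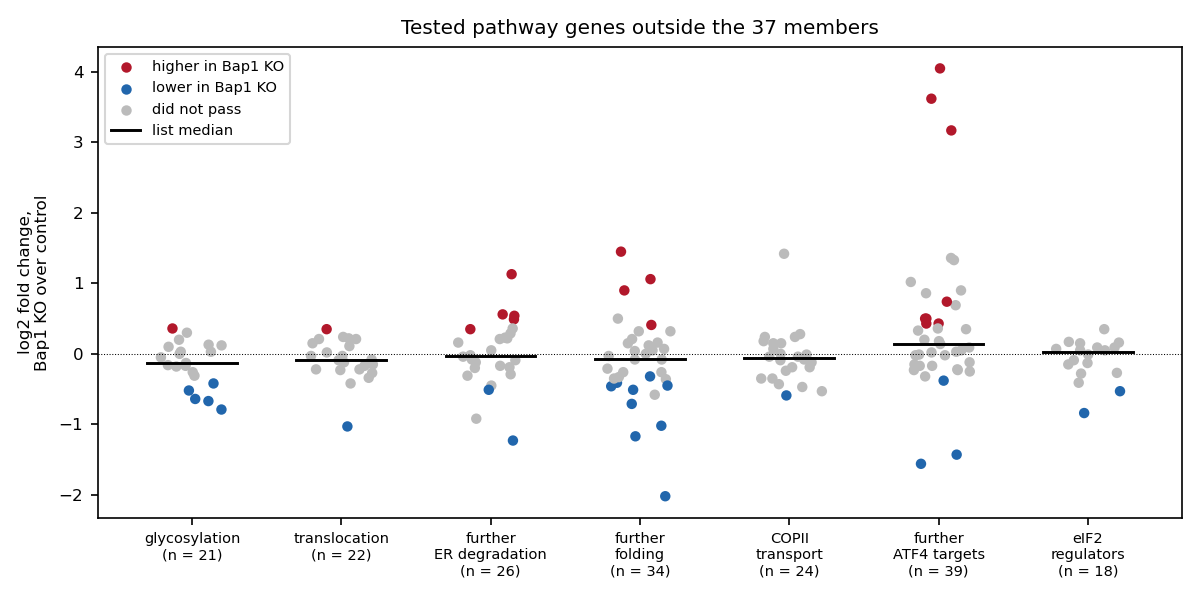
Log2 fold change (Bap1 KO over control, vertical axis) of each tested pathway gene outside the members, by list, with called genes in colour and the list median as a bar. List medians run from -0.13 for glycosylation to 0.14 for further ATF4 targets, with single genes from -2.02 (Prdx4) to 4.05 (Cbs).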

How the data were processed

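RNA was sequenced in 6 GMP libraries, 3 per group. Per the labels' protocols, RNA was amplified by SMARTer low-input chemistry before Ion Torrent library preparation, and no molecular identifiers are described. Tools listed in the submitters' processing notes, without roles, were HTSeq, DESeq2, STAR, Picard and BWA 0.7.5a, with the builds mm9 and NCBIM37; no source used here gives the strand setting of the counting, so overlapping genes cannot be told apart. The deposited table holds a signal per gene, which is a count scaled by the authors with a single size factor for the library: 100% of values were whole multiples, within 0.01 of a read, of a step that was 0.8885 to 1.1419 across libraries. Dividing by that step gave back whole reads. The 5 rows that name no gene were left out: they held 38.4 to 40.9% (no gene), 26.8 to 28.8% (not unique), 6.3 to 11.62% (not aligned) and 0.12 to 0.13% (ambiguous) of listed reads, which left 22.9 to 25.2% in genes. Reads aligned to several places were not counted, so genes with close copies are undercounted.

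Symbols, transcript lengths and GC content came from GENCODE M21 (GRCm38), and 32897 of 37620 IDs had a symbol; promoter sequences came from RefSeq (GRCm38.p6), and no coordinates were taken from the authors' build. The main test was limma 3.58.1 (R 4.3.3), its variance trended on mean level, on log2(value + 1) of genes whose mean reached 10, 2-sided, with group as the sole term. The added 1 pulls ratios of low values toward 1, and since logs were averaged, a fitted fold change can lie on either side of the log2 ratio of means. Ratios given as folds are of group means. On recovered reads, the quasi-likelihood test of edgeR 4.0.16 called 1687 genes higher and 2077 lower, and DESeq2 1.42.0 called 1921 and 2315. The steps were tested on simulated counts with known changes in 200 genes. That is far fewer than were called here, and the simulation held no trend with GC content or length. The members and lists were chosen with earlier results of these data known, and lists are described by counts and medians with no test. Named genes of the pathway lists, apart from Cth, were among the 3 with the lowest adjusted p in each direction of their list. Bap1, cell type markers and the genes of the later ERSE search were named outside this rule. Replicate numbers are shared between the groups, but no label pairs the samples.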

Additional observations from a re-analysis of the deposited data

How the results depend on the processing

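Of the 14 ER members called, 8 kept their call and direction in all 15 alternatives: Hspa5, Hsp90b1, Manf, Creld2, Pdia4, Pdia6, Herpud1 and Asns. The other 6 lost it in at least 1, and 5 of the 23 members not called passed in at least 1: Dnajc3, Derl2, Ero1l and Ern1 in their own direction, and Canx, which reversed to 0.31 under the GC and length correction; the cause was not tested. That correction gave 2609 genes higher, 6 ER members higher, 2 disulfide enzymes lower, 2 sensor genes higher, and 39 higher and 14 lower pathway genes outside the members. At a mean value of at least 50, which leaves Trib3 out, 1 ATF4-arm gene was higher. Leaving out 1 library gave 1058 to 1796 genes higher and 1413 to 2354 lower, with the lowest counts without control replicates 2 and 3. It gave 7 to 12 ER members lower, 7 without control replicate 2, and 2 to 3 higher. By role it gave 4 to 7 chaperones, 2 to 4 disulfide enzymes and 1 to 2 degradation genes lower, with 0 to 1 sensor genes and 1 to 2 ATF4-arm genes higher. Of pathway genes outside the members, 11 to 23 were higher and 8 to 28 lower. Fewer libraries also leave fewer degrees of freedom.

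Deviations of same-numbered libraries from their group means had r = -0.104, 0.042 and -0.058 across genes for replicates 1, 2 and 3. For libraries of unlike number r ran from -0.07 to 0.119. These values show no sign of pairing by number, but cannot exclude one that affects few genes. With the replicate number as a block, 1550 genes were higher and 2014 lower, and 3 ER members were higher and 10 lower. Other scalings, pseudocounts and tools (TMM, a pseudocount of 4, voom, edgeR and DESeq2) gave 11 or 12 ER members lower and 3 higher. Reads limit Derl3, Eif2ak3, Chac1 and Trib3 the most.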

Other observations

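ERSE was also read across genes outside the members, a search made after the members' values were seen. Outside the members, 9 tested genes had a RefSeq window that holds ERSE. Over all 9509 tested genes with a window, 1154 were higher and 1619 lower, with a median log2 fold change of -0.04. Of the 9, 3 were higher and 1 was lower in the libraries labelled Bap1 KO, with a median of 0.17. Alg12, a mannosyltransferase of N-glycan assembly, was the lower one (log2 fold change -0.75, limma adjusted p = 0.0331). The higher ones were Adcy3, an adenylyl cyclase (0.88, adjusted p = 0.0138), Ptgdr2, a prostaglandin D2 receptor (1.58, 0.0199), and Acacb, an acetyl-CoA carboxylase (2.99, 0.0339). CARE was held by 261 tested genes outside the members, of which 35 were higher and 58 lower, against 1154 higher and 1619 lower of all 9509.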
